A study of Mus musculus with 12 samples.

Results

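Transcripts of blood were followed in the spinal cord through 5 genes: the adult α-globin genes Hba-a1 and Hba-a2, the adult β-globin genes Hbb-bs and Hbb-bt, and Alas2. They were matched by mouse symbol to the Ensembl IDs of the deposited counts, and all 5 were found among the 49548 genes counted. MFN2 mice are untreated MitoCharc1 animals (8 libraries), on a mixed B6;D2 background with the transgene Tg(Eno2-MFN2*R94Q)L51Ugfm, in which the rat Eno2 promoter, active mainly in neurons, drives human MFN2 with the R94Q change. They are hemizygous and keep both copies of their own Mfn2. WT mice (4 libraries) are untreated and labelled C57BL/6, while the study's methods describe WT littermates. All were 30 days old, and the tissue is given as spinal cord in the labels and as lumbar spinal cord in the methods.

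Hemoglobin, the oxygen carrier of red cells, joins a pair of α-globin chains with a pair of β-globin chains, each holding a heme group. Mature mouse red cells have lost their nucleus, but the youngest circulating ones, the reticulocytes, still carry globin mRNA, so that blood left in the vessels of a tissue brings these transcripts into its RNA. Alas2 encodes the red cell form of 5-aminolevulinate synthase, the first enzyme of heme synthesis, while other cells use Alas1. No source used here says whether blood was flushed from the vessels before the cords were taken. In bulk RNA, fewer red cells and less RNA per red cell cannot be told apart.

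The libraries are numbered 41 to 47 and 72 to 76. MFN2 mice hold the numbers 41 to 43 and 72 to 76 and WT mice 44 to 47, so that genotype and number run cannot be told apart for libraries 72 to 76. Total counts were 19359454 to 26738930 per library. Mouse Mfn2, which the design leaves intact in both genotypes, lay at 194 to 228 CPM (counts scaled to a common library size by TMM) in WT mice, 211 to 223 in MFN2 libraries 41 to 43 and 190 to 212 in libraries 72 to 76. The human transgene was not analysed here, so that these counts do not check the genotype labels.

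Library 43, from an MFN2 mouse, stood apart in its tissue markers. It was highest for 7 of 7 tested forebrain genes and lowest for 13 of 14 spinal cord genes. Slc17a7, the vesicular glutamate transporter of cortical neurons, reached 1032 CPM there and at most 13.6 CPM elsewhere. Chat, the acetylcholine-synthesising enzyme of motor neurons, was at 5.21 CPM there and at 16.4 to 35.3 CPM elsewhere. The fold changes of the 5 members are therefore also given without it where it entered, while group means, shares and counts of list genes include it.

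The α-globin pair lies on chromosome 11 of GRCm38, Hba-a1 (ENSMUSG00000069919) at chr11:32283511-32284465 and Hba-a2 (ENSMUSG00000069917) at chr11:32296489-32297298, both on the plus strand and 12023 bases apart. The β-globin pair lies on the minus strand of chromosome 7, Hbb-bs (ENSMUSG00000052305) at chr7:103826534-103828096 and Hbb-bt (ENSMUSG00000073940) at chr7:103812524-103813996, with 12537 bases between them. Alas2 (ENSMUSG00000025270) spans chrX:150547375-150570638 on the plus strand. Hbb-bs and Hbb-bt are the β-globin genes of the haplotype that C57BL/6 mice and the reference genome carry. Other inbred strains, DBA/2 among them, carry another haplotype with Hbb-b1 and Hbb-b2, and these were not analysed here. Which haplotype each mouse carried is not known here, so that the levels and shares of Hbb-bs and Hbb-bt, and ratios to Hbb-bs, may depend on it.

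Both pairs are near copies, which bears on how reads are shared between their members. The coding sequences of the annotated transcripts differ at 1 base in each pair, C381T from Hba-a1 to Hba-a2 over 429 bases and C417T from Hbb-bs to Hbb-bt over 444 bases, counted from 1 at the first base of the start codon. The stretches around these bases are shown because they are the coding positions at which a read can tell a pair apart, with the differing base in capitals and 20 bases on either side.
Hba-a1: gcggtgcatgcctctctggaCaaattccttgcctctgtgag
Hba-a2: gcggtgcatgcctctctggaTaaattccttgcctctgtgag
Hbb-bs: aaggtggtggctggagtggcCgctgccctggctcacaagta
Hbb-bt: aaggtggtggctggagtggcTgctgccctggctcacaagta
Reads were paired-end and 75 bases long, and the shares given next take each read alone, without its mate. Of all 75-base stretches, 62.2% of the Hba-a1 transcript and 81.0% of the Hba-a2 transcript also occur in the other gene, and 64.3% of Hbb-bs and 56.6% of Hbb-bt. How the counting treated such reads is not given in the sources used here, so that the level of each single globin gene is less certain than the sum of its pair.

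The stretches just before the start of transcription are shown because the 5 genes belong to 1 cell lineage and their levels are compared below. They were taken from RefSeq, build GRCm38.p6, with 5 of 5 genes matched, as the 130 bases before the annotated start. Some GENCODE models of these genes begin further upstream. Motifs are in capitals and were searched on both strands. The box for NF-Y was searched as CCAAT. The box bound by Krüppel-like factors was searched as CACCC. The letters ATATAA stood for a TATA box, and a GATA factor site was searched as AGATAA.
Hba-a2, chr11:32296362-32296491, plus strand: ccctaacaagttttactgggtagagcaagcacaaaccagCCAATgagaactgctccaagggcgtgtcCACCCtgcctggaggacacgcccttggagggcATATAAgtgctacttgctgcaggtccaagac
Hbb-bs, chr7:103827929-103828058, minus strand: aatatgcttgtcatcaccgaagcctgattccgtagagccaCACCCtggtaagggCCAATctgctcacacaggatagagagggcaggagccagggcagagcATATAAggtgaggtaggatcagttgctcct
Hbb-bt, chr7:103813924-103814053, minus strand: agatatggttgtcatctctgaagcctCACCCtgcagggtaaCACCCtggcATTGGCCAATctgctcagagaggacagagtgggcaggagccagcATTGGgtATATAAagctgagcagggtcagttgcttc
Alas2, chrX:150547287-150547416, plus strand: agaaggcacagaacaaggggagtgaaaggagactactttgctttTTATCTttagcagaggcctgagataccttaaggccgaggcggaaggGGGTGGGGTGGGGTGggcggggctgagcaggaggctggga
The Hba-a1 stretch, not shown, holds an identical run of 127 bases with that of Hba-a2. All 4 globin stretches held the NF-Y box, the Krüppel-like factor box and the TATA box, which were present in 22.4%, 33.7% and 4.75% of the 32851 promoters of the same length. Alas2 held the GATA site, present in 4.79% of them, and 3 copies of the Krüppel-like factor box, all on the reverse strand, and neither the NF-Y nor the TATA box in this window. A second form of the GATA site, TGATAA, was in 3.84% of promoters and in 0 of the 5. These are matches of letters and do not show binding.

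Per length of transcript, Hbb-bs was the most abundant of the 5 genes at 94.9 RPKM averaged over the 12 libraries (CPM per kilobase of the longest protein-coding transcript). Hba-a2 followed at 68.2, Hba-a1 at 36.7, Hbb-bt at 16.96 and Alas2 at 8.64 RPKM. The order held in most libraries: Hbb-bs was above Hba-a2 in 11 of 12, Hba-a2 above Hba-a1 in 10 of 12, Hba-a1 above Hbb-bt in 12 of 12 and Hbb-bt above Alas2 in 12 of 12. The spread over libraries was wide, 16.2 to 213 RPKM for Hba-a2 and 49.5 to 182 RPKM for Hbb-bs, so that these neighbours overlapped. The α genes made up 42.3% to 51.5% of the globin counts.

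Together the 4 globin genes took 0.00586% to 0.0298% of all counts of a library. The share was 0.0142% ± 0.00664 in MFN2 mice (SD, n = 8) and 0.0122% ± 0.00526 in WT mice (SD, n = 4). The lowest was WT library 45 (1303 globin counts, 95% Wilson interval 0.00555% to 0.00619%) and the highest MFN2 library 73 (5762 globin counts, 0.0290% to 0.0305%). WT library 44 was second, at 0.0186%. Thus the extremes of the globin share lay in opposite genotypes, and the spread inside each genotype was larger than the difference of their means. Intervals cover counting error only, since PCR copies are not separate molecules.

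**Figure D1:**
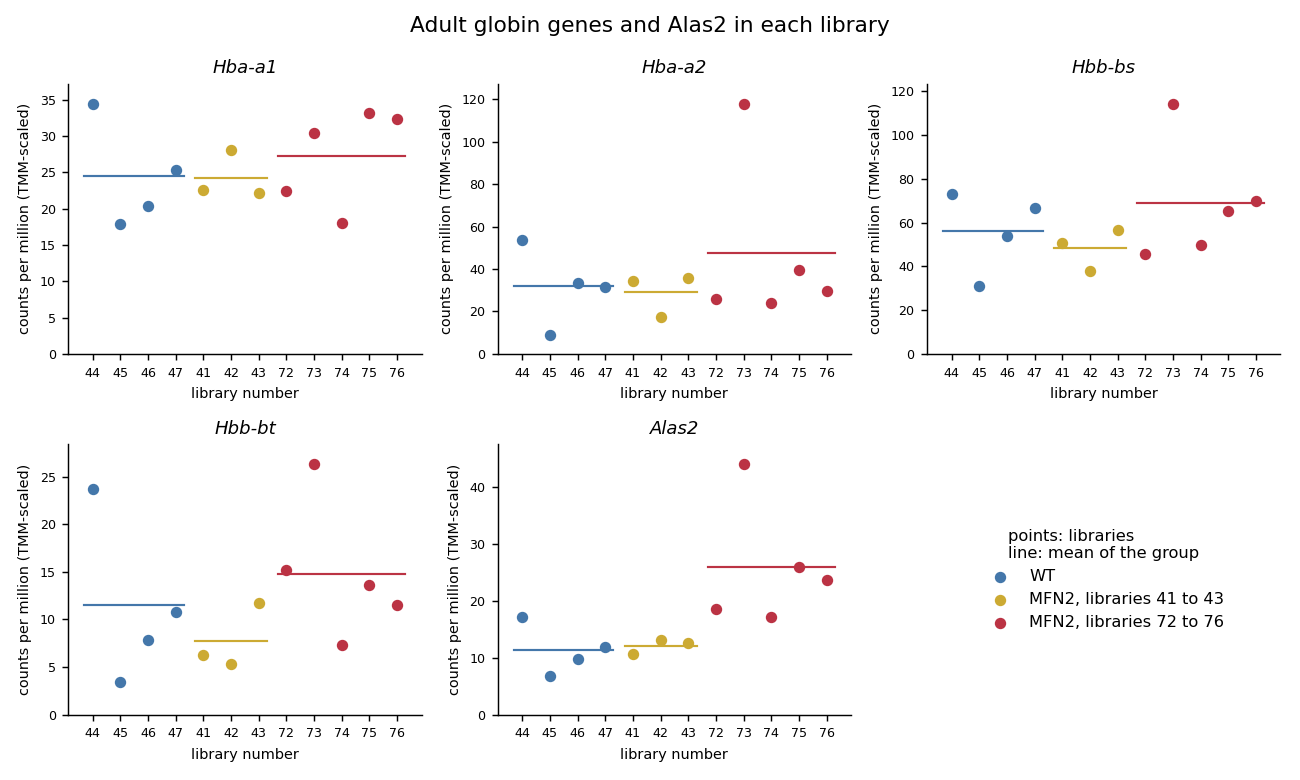
Level of each of the 5 genes in each library, in CPM scaled by TMM (y axis, starting at 0), with libraries ordered by group on the x axis and the mean of each group as a line. Library 73 is highest for Hba-a2, Hbb-bs, Hbb-bt and Alas2, library 44 is highest for Hba-a1, and library 45 is lowest in every panel.

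Of the α genes, Hba-a1 varied least. In WT libraries 44 to 47 it was at 34.5, 17.9, 20.3 and 25.3 CPM. In MFN2 libraries 41 to 43 it was at 22.6, 28.1 and 22.2 CPM, and in libraries 72 to 76 at 22.5, 30.5, 18.1, 33.3 and 32.4 CPM. The highest library was 1.93 times the lowest, and the groups overlapped over nearly their whole range. Hba-a2 varied most of the 5. It was at 53.7, 8.996, 33.6 and 31.6 CPM in WT libraries 44 to 47, and at 34.6, 17.6 and 35.7 CPM in MFN2 libraries 41 to 43. In libraries 72 to 76 it was at 26.1, 118, 24.2, 39.8 and 29.8 CPM. The highest library, 73, was thus 13.1 times the lowest, 45, and the other 4 libraries of the second run lay inside the WT range.

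Of the β genes, Hbb-bs was at 73.2, 31.1, 53.8 and 66.7 CPM in WT libraries 44 to 47 and at 50.7, 37.7 and 56.7 CPM in MFN2 libraries 41 to 43. Libraries 72 to 76 held 45.6, 114, 49.7, 65.4 and 70.0 CPM. Only library 73 exceeded the highest WT library. Hbb-bt, the minor β gene, was at 23.7, 3.44, 7.89 and 10.8 CPM in WT libraries 44 to 47 and at 6.22, 5.35 and 11.7 CPM in MFN2 libraries 41 to 43. Libraries 72 to 76 held 15.2, 26.3, 7.32, 13.6 and 11.5 CPM. Library 73 was again highest and library 45 lowest, 7.65-fold apart, and the groups overlapped.

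Alas2 was the one member whose second-run libraries stood together. It was at 17.2, 6.74, 9.70 and 11.9 CPM in WT libraries 44 to 47, at 10.6, 13.1 and 12.5 CPM in MFN2 libraries 41 to 43, and at 18.5, 43.998, 17.2, 25.9 and 23.7 CPM in MFN2 libraries 72 to 76. All 5 second-run libraries lay above the other 7, though the margin was narrow, 17.219 CPM in library 74 against 17.156 CPM in WT library 44. Of 15942 genes tested, 692 (4.34%) had all of libraries 72 to 76 above the other 7. The other 4 members did not.

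Between the 8 MFN2 and 4 WT libraries, 0 of the 5 genes passed an FDR of 0.05 by edgeR (quasi-likelihood F-test, p adjusted by Benjamini-Hochberg over all 15942 genes tested), and 0 of those genes did (0%), while 2386 had an unadjusted p below 0.05 and DESeq2 called 200. The log2 fold change was 0.097 (SE 0.195) for Hba-a1, 0.35 (SE 0.517) for Hba-a2, 0.12 (SE 0.285) for Hbb-bs and 0.078 (SE 0.487) for Hbb-bt, with adjusted p from 0.754 to 0.947. For Alas2, the 1 member with an unadjusted p below 0.05, it was 0.86 (SE 0.377, adjusted p = 0.312; 0 members were called by DESeq2), and 0.94 without library 43 (adjusted p = 0.213). Without that library Hba-a1, Hba-a2, Hbb-bs and Hbb-bt were at 0.13, 0.37, 0.14 and 0.079. The sign for Hba-a2, Hbb-bs and Hbb-bt rested on library 73. Without it, the values were -0.099, -0.060 and -0.17. Without WT library 45, Hba-a1, Hbb-bs and Hbb-bt became -0.028, -0.077 and -0.22, and without WT library 46, Hbb-bt became -0.065. The median log2 fold change of the 5 was 0.12, beside 0.0038 over all genes tested.

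Within libraries 41 to 47, where both genotypes share the number run, the 5 genes had log2 fold changes of 0.0036 for Hba-a1, -0.11 for Hba-a2, -0.20 for Hbb-bs, -0.55 for Hbb-bt and 0.10 for Alas2 (edgeR, adjusted p from 0.739 to 0.996, SE 0.229 to 0.613). Thus 0 of 5 were called, beside 1 of 15200 genes (0.00658%), the pseudogene Rpsa-ps10, named after its value was seen. Here 0 of the 5 had an unadjusted p below 0.05, and DESeq2 called 0 of them. Without library 43, Hba-a1 was at 0.058, Hba-a2 at -0.29, Hbb-bs at -0.34, Hbb-bt at -0.99 and Alas2 at 0.069 (edgeR adjusted p from 0.940 to 0.990).

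Libraries 72 to 76 against WT gave 3746 calls among 15743 genes (23.8%), and 1 of the 5 members was among them. Alas2 was higher, with a log2 fold change of 1.18 (SE 0.359, edgeR adjusted p = 0.0479). A call rate of 1 in 5 is near that background, in which 11.1% of all genes were called higher and 12.7% lower. The call stood close to the threshold. It was lost when WT library 45, 46 or 47 was left out (adjusted p = 0.101, 0.118 and 0.103) and when MFN2 library 72, 75 or 76 was (0.0525, 0.0832 and 0.0685), while the log2 fold change stayed between 0.91 and 1.45. Hba-a1, Hba-a2, Hbb-bs and Hbb-bt were at 0.15, 0.56, 0.29 and 0.35 (adjusted p from 0.589 to 0.702). Without library 73, Hba-a2 was at -0.090.

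Between the runs of MFN2 mice, libraries 72 to 76 against 41 to 43, 342 of 15633 genes were called (2.19%) and 0 of the 5 members. DESeq2 called Alas2 among 1795 genes. Alas2 was at a log2 fold change of 1.07 (SE 0.303, edgeR adjusted p = 0.0944), and at 1.11 without library 43 (adjusted p = 0.134). Hbb-bt was at 0.90 (SE 0.429, adjusted p = 0.234), Hba-a2 at 0.67, Hbb-bs at 0.49 and Hba-a1 at 0.15. Without library 43, they were at 1.34, 0.85, 0.63 and 0.096, and 2375 genes were called. Leaving out any other single library gave 31 to 234 calls. These comparisons share libraries, so that they are not separate evidence.

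**Figure D2:**
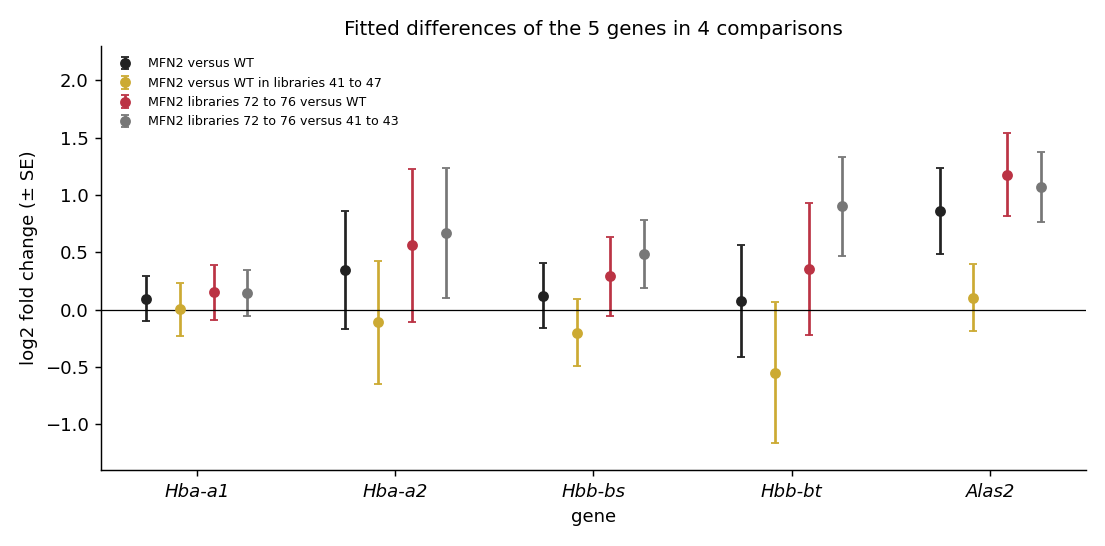
Log2 fold change of each gene (y axis) in the 4 comparisons, with bars of 1 standard error from edgeR's quasi-likelihood fit. Alas2 lies at 1.18 in libraries 72 to 76 against WT and at 0.10 in libraries 41 to 47, and 0 of the 4 globin genes passed the test in any comparison.

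Scaled to Hbb-bs of the same library rather than to all counts, Alas2 separated the second run from WT more widely. There were 23.4, 21.7, 18.025 and 17.8 Alas2 counts per 100 Hbb-bs counts in WT libraries 44 to 47. Libraries 72 to 76 held 40.7, 38.5, 34.6, 39.6 and 33.9, and MFN2 libraries 41 to 43 held 20.9, 34.9 and 22.1. Library 42 therefore fell inside the range of the second run, and the 3 groups were not split by genotype alone. Library 73, extreme in CPM, was not extreme in this ratio.

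A gene on the other strand overlaps Alas2. Apex2, which encodes a DNA repair nuclease, spans chrX:150519519-150589868 on the minus strand, and 311 of the 2403 exon bases of Alas2 (12.9%) are also exon bases of Apex2. The strand setting of the counting is not given in the sources used here, so that reads of the pair may not be told apart. Apex2 was at 6.59 to 8.82 CPM in WT mice, 7.13 to 12.1 in MFN2 libraries 41 to 43 and 9.93 to 12.8 in libraries 72 to 76. In libraries 72 to 76 against WT its log2 fold change was 0.53 (SE 0.113, edgeR adjusted p = 0.00633). Its part in the Alas2 result was not tested.

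**Figure D3:**
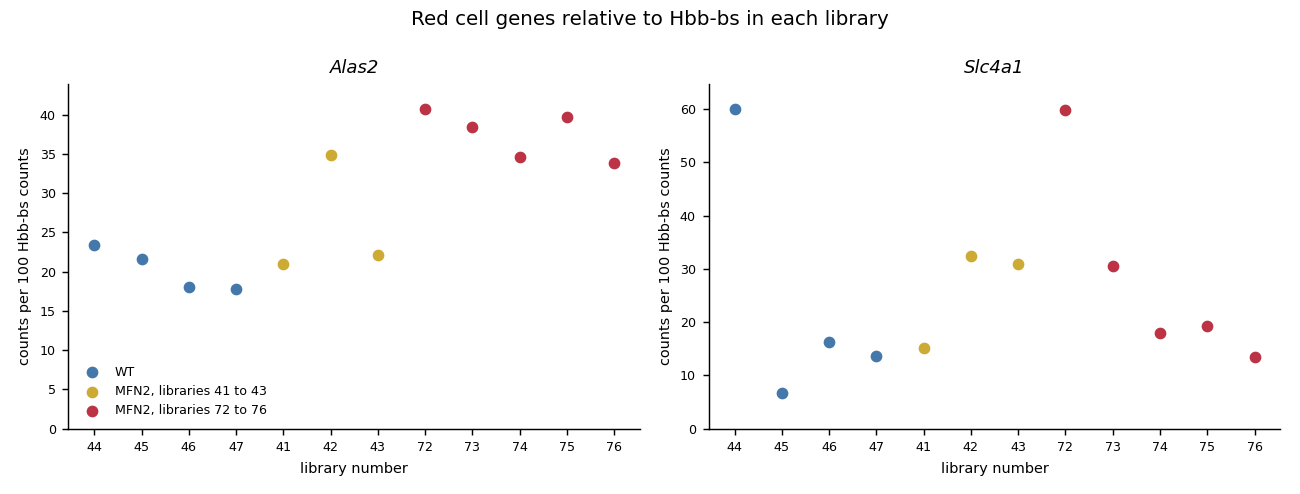
Counts of Alas2 and of Slc4a1, the red cell anion exchanger, per 100 counts of Hbb-bs in each library (y axes, starting at 0), with libraries ordered by group. Alas2 lies at 33.9 to 40.7 in libraries 72 to 76 and at 17.8 to 23.4 in WT mice, while Slc4a1 is highest in WT library 44 and MFN2 library 72, near 60.0 in both.

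The balance inside each globin pair also moved from library to library, in both genotypes. Hba-a2 made up 33.5% of the α-globin counts in WT library 45 (Wilson interval 29.8% to 37.5%) and 79.5% in MFN2 library 73 (78.0% to 80.9%). MFN2 library 42 was at 38.5% and the remaining 9 libraries at 47.9% to 62.3%. The means were 56.7% ± 11.8 in MFN2 mice (SD, n = 8) and 53.1% ± 13.4 in WT mice (SD, n = 4). Hbb-bt made up 9.96% of the β-globin counts in WT library 45 (7.996% to 12.3%), 24.5% in WT library 44 (22.8% to 26.3%) and 25.0% in MFN2 library 72 (22.8% to 27.4%). The means were 16.0% ± 4.52 in MFN2 mice (SD, n = 8) and 15.3% ± 6.36 in WT mice (SD, n = 4). The differences between genotypes were within the spread of the libraries. Since the pairs share most 75-base stretches, the shares also depend on where reads fell and how shared ones were counted, which was not tested.

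**Figure D4:**
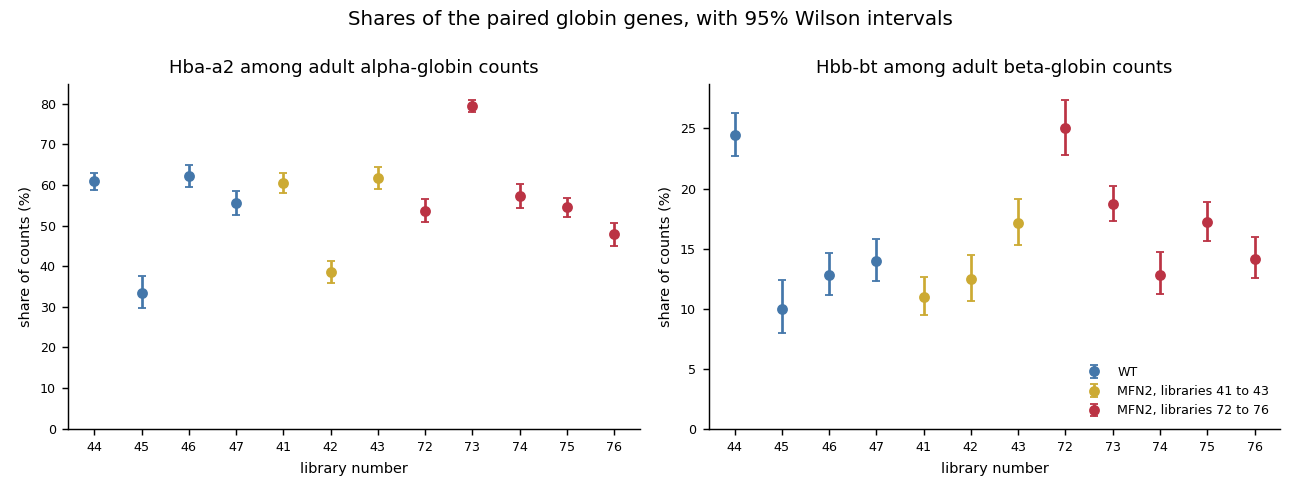
Share of Hba-a2 among the counts of both α genes and of Hbb-bt among those of both β genes (y axes, in percent) in each library, with 95% Wilson intervals as bars. Library 73 is highest for Hba-a2 at 79.5%, and libraries 44 and 72 are highest for Hbb-bt at 24.5% and 25.0%.

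Pearson's r between members was above 0 in all 10 pairs and lowest in those that hold Hba-a1, 0.574 to 0.664. By Spearman's rho, 5 of the 10 pairs had an adjusted permutation p above 0.05 (0.0625 to 0.228). Over the 12 libraries, log2 CPM of Hba-a2 and Hbb-bs had a Pearson r of 0.938 (permutation p = 6e-05, adjusted 0.0006 over 10 pairs) and a Spearman rho of 0.811 (permutation p = 0.00246, adjusted 0.0246). It was 0.800 without the 2 libraries farthest from the median, 0.937 within libraries 41 to 47 and 0.940 without library 43. Hbb-bs and Hbb-bt had an r of 0.856 (permutation p = 0.00049, adjusted 0.00163) and a rho of 0.741 (permutation p = 0.00735, adjusted 0.0248). Hba-a1 and Hba-a2, the near copies, had the lowest r, 0.574 (permutation p = 0.0442, adjusted 0.0442), with a rho of 0.580 (permutation p = 0.0519, adjusted 0.0649). For Hba-a2 and Alas2, r was 0.741 (permutation p = 0.00762, adjusted 0.0127) but rho 0.378 (permutation p = 0.228, adjusted 0.228). Here r fell to 0.101 without the 2 farthest libraries, so that over the 12 libraries this relation rests on them, and it was 0.760 within libraries 41 to 47. For Hbb-bs and Alas2, r was 0.780 (permutation p = 0.00373, adjusted 0.00746) and rho 0.503 (permutation p = 0.101, adjusted 0.112). This r fell to 0.356 without the 2 farthest libraries and was 0.715 within libraries 41 to 47. No value is given for the second run alone, which holds only 5 libraries.

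Among the other tested genes, the pattern most like that of the 5 members was that of Tent5c, with an r of 0.968 between its log2 CPM and the mean centred log2 CPM of the members over 12 libraries. Tent5c, a noncanonical poly(A) polymerase that is also on the list of red cell genes expressed in other cells, was at 6.36 CPM in library 45, 16.7 in library 44 and 23.4 in library 73. The next were Baz1a (0.916), Gm12097 (0.908), Cdca2 (0.905), Cth (0.903), Cep192 (0.900), Hist1h2af (0.897), H19 (0.896), Gm26944 (0.885) and Ncapg (0.879). H19, an imprinted noncoding RNA, was at 34.0 CPM in library 73 and at 0.612 to 11.2 CPM in the other libraries. The lowest were Mepce (-0.908), Taf11 (-0.903) and Prmt2 (-0.895). These were picked as the extremes of 15937 genes, of which 295 had an r above 0.7, and all points share their libraries and scaling.

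Embryonic globin genes were almost silent. Hbb-bh2 had 0 counts in all 12 libraries, which allows up to 0.155 CPM in the shallowest of them (3 counts). Hba-x had 3 counts in all, Hbb-y 2, and Hbb-bh1 and Hbb-bh0 1 each. The theta-like genes Hbq1a and Hbq1b were at 0.0381 to 0.437 CPM and 0.0522 to 0.619 CPM. The globin RNA in these cords was thus almost wholly of the adult genes.

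Other genes listed for the red cell lineage were present, and most of those tested varied with the members across libraries. Of 18 matched, 13 were tested between MFN2 and WT mice, and edgeR called 0 in any of the 4 comparisons. With single libraries left out, the count was 0 to 1 in libraries 72 to 76 against WT. The unadjusted edgeR p was below 0.05 for 1 of 10 genes tested within libraries 41 to 47, beside 1083 of all 15200 genes. In libraries 72 to 76 against 41 to 43 it was below 0.05 for 2 of 11 genes tested, and DESeq2 called 2 genes of the list. Over all genes tested in that last comparison, 3840 of 15633 had such a p and DESeq2 called 1795, so that these counts are not set apart from the background. Tal1, a transcription factor of blood formation, had such a p in both comparisons. Its highest library was only 2.19 times its lowest, which was library 41. The summed level of the 18 genes ran from 9.75 CPM in WT library 45 to 111 CPM in WT library 44, an 11.4-fold span. Of the 13, 10 were lowest in library 45 and 8 highest in library 44, and 9 had an r above 0.7 with the members. Slc4a1, the most abundant, was at 43.9, 2.07, 8.73 and 9.13 CPM in WT libraries 44 to 47 and at 7.67, 12.2 and 17.5 CPM in MFN2 libraries 41 to 43. Libraries 72 to 76 held 27.3, 34.9, 8.89, 12.6 and 9.43 CPM.

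The red cell genes did not keep a fixed ratio to globin. There were 60.0 Slc4a1 counts per 100 Hbb-bs counts in WT library 44 and 59.9 in MFN2 library 72, 30.5 in library 73 and 6.67 in library 45. In libraries 72 to 76 against WT, Slc4a1 had a log2 fold change of 0.21 (SE 0.851, edgeR adjusted p = 0.890). The list had a median log2 fold change of 0.23 there, beside 1.18 for Alas2 and -0.00066 over all genes tested. Its summed level was 28.2 to 87.1 CPM in libraries 72 to 76 and 9.75 to 111 CPM in WT mice, and its part in the Alas2 result was not tested.

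Of the red cell genes that cord cells also express, 16 of 16 were tested. In libraries 72 to 76 against WT, edgeR called 3 of them, all higher. Over all genes tested there, 23.8% were called in either direction, which is near that count, and 11.1% were called higher. Among the 3 were Epb41, a membrane skeleton protein (log2 fold change 0.42, SE 0.0766, adjusted p = 0.00283), and Bsg, basigin (0.18, SE 0.0576, adjusted p = 0.0375). Their summed level was 1728 to 2203 CPM, a 1.27-fold span beside 4.71-fold for the globins. Of these 16 genes, 3 had an r above 0.7 with the members.

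Of 16 heme synthesis genes outside Alas2, 15 were tested, 1 had an r above 0.7 with the members, and 0 were called in the comparison of all MFN2 with WT libraries. In libraries 72 to 76 against WT, Flvcr1, a heme exporter, rose (log2 fold change 0.23, edgeR adjusted p = 0.0205), and Tmem14c, needed for porphyrin transport in mitochondria, and Abcb10, a transporter of the inner mitochondrial membrane, fell by 0.29 and 0.21 on the log2 scale (edgeR adjusted p = 0.0114 and 0.0486). These 3 of 15 calls stand beside 23.8% over all genes. The summed level was 404 to 521 CPM, a 1.29-fold span, while single genes varied more. Alad, the enzyme after Alas2 in the pathway, was singled out after its values were seen. It was at 32.7 CPM in library 73 and at 11.5 to 21.5 CPM elsewhere.

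Genes of heme breakdown and scavenging had 7 of 9 tested, of which 2 fell in libraries 72 to 76 against WT (edgeR). Lrp1, a receptor that takes up heme bound to hemopexin among many other ligands, fell by 0.30 on the log2 scale (adjusted p = 0.00194), and Slc48a1, a heme transporter, fell by 0.36 (adjusted p = 0.0148). Hmox1, which opens the heme ring and rises with heme load, was singled out after its values were seen and lay at 2.71 to 4.31 CPM with no called difference. Of 10 iron genes, all tested, Fth1 and Ftl1, the ferritin chains, fell by 1.04 and 0.39 (edgeR adjusted p = 0.00810 and 0.00311), and Slc40a1, the iron exporter ferroportin, rose by 0.34 (adjusted p = 0.0333). Fth1 was at 2335, 1734 and 679 CPM in MFN2 libraries 41 to 43, 848 to 1349 CPM in libraries 72 to 76 and 1326 to 2542 CPM in WT mice. Of 10 regulators of globin genes, all tested, Zfpm1 and Klf3 fell by 0.25 and 0.28 (edgeR adjusted p = 0.0179 and 0.0287). The counts of these 3 lists, 2 of 7, 3 of 10 and 2 of 10, are near the 23.8% called over all genes in that comparison. None of the genes in these 3 lists was called in the other 3 comparisons.

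White cell genes were most abundant in WT library 44, which was also highest for the summed red cell lineage genes. It was not highest for the summed globins, at 185 CPM beside 289 CPM in MFN2 library 73. The 13 neutrophil genes summed to 99.5 CPM in library 44, 15.1 CPM in library 45 and 20.01 to 45.6 CPM in the 10 others. Of the 8 tested, 7 were highest in library 44 and 7 were lowest in library 45. S100a9, a calcium-binding protein abundant in neutrophils, was at 19.6 CPM in library 44, 0.801 in library 45 and 1.63 to 8.28 elsewhere. Mmp9, the most abundant of the list, did not follow this order and was at 13.7 CPM in WT library 47. Lyz2, the lysozyme of monocytes and macrophages, was at 15.9 CPM in library 44, 2.83 in library 45 and 9.43 in library 73. Cd8a, a T-cell coreceptor singled out after its values were seen, was at 3.75 CPM in library 44 and at most 0.151 CPM elsewhere, where it was at 0 counts in 7 libraries. The lymphocyte list summed to 43.1 CPM in library 44 and 15.015 to 32.5 CPM elsewhere, and the monocyte list to 24.6 CPM in library 44 and 4.03 to 15.5 CPM elsewhere. In all 4 comparisons, 0 genes of the neutrophil, lymphocyte, monocyte and platelet lists were called by edgeR, and 1, S100a8 of the neutrophil list, had an unadjusted p below 0.05, in libraries 72 to 76 against 41 to 43. In that comparison 3840 of all 15633 genes tested had such a p. At most 8 of the 13 neutrophil, 2 of the 14 lymphocyte, 2 of the 8 monocyte and 4 of the 13 platelet genes were abundant enough to be tested, so that most genes of these lists have no test.

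**Figure D5:**
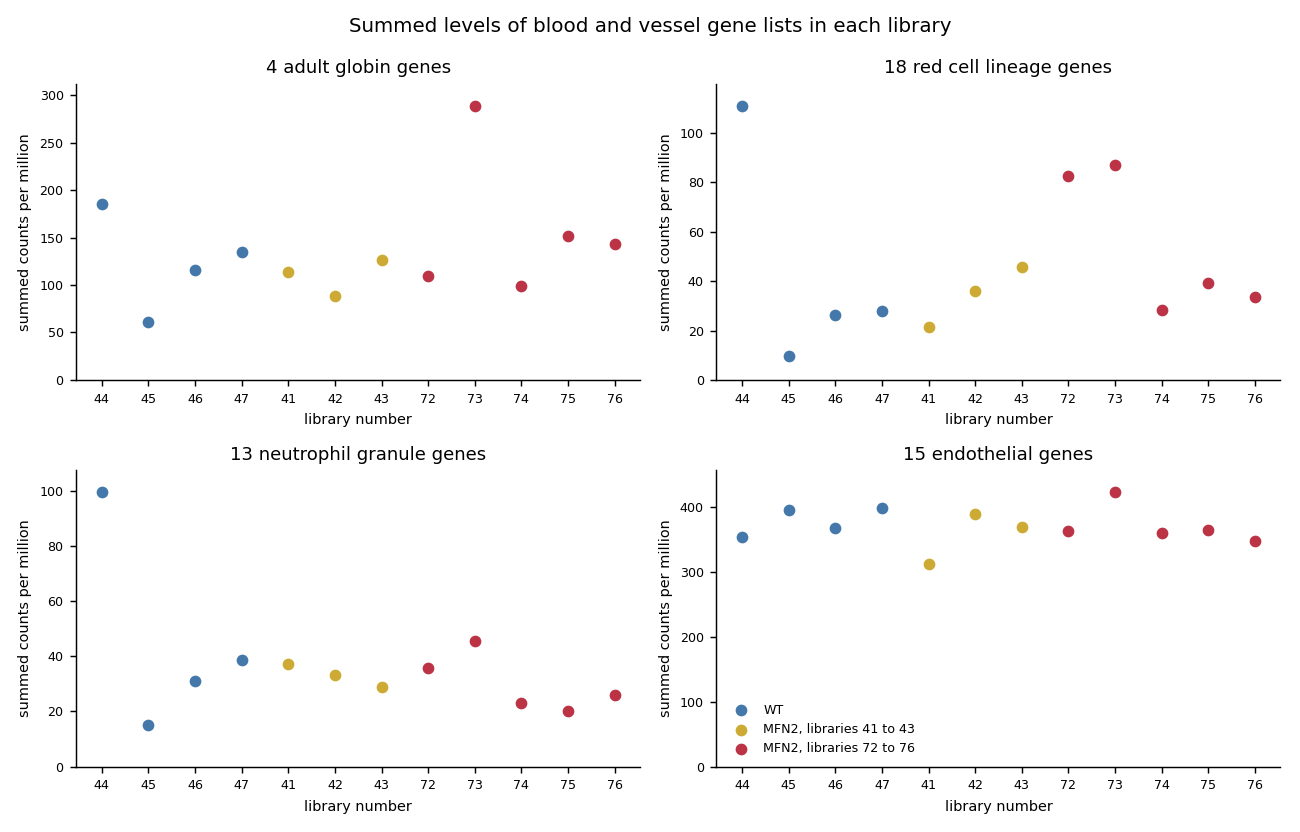
Summed level of 4 gene lists in each library, in CPM scaled by TMM (y axes, starting at 0), with libraries ordered by group. WT library 44 is highest for the red cell lineage genes (111 CPM) and the neutrophil genes (99.5 CPM), MFN2 library 73 for the globins (289 CPM), and the endothelial genes span 312 to 423 CPM.

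The summed levels of the vessel and platelet lists spanned less than that of the globins, 4.71-fold. Single genes spanned more, among them Des and Tagln of the mural list, 20.5-fold and 4.89-fold. In the platelet list, Ppbp and Pf4 spanned 20.3-fold and 9.32-fold. They reached at most 0.786 and 0.878 CPM, too low to be tested. All of these single genes were named after their values were seen. The 15 endothelial genes summed to 312 to 423 CPM, a 1.36-fold span, and the 10 mural genes to 135 to 219 CPM, a 1.62-fold span. Both sums were highest in library 73, which was also highest for the summed globins. Platelet genes summed to 15.8 to 23.6 CPM, with Itgb3, the most abundant of them, at 5.96 to 16.2 CPM. Of the endothelial list, 0 genes had an r above 0.7 with the members, with a median r of -0.13. In libraries 72 to 76 against WT, the tight junction gene Cldn5 fell by 0.82 on the log2 scale, and Acta2 and Myh11, of smooth muscle, by 1.07 and 0.77 (edgeR adjusted p = 0.00685, 0.00778 and 0.0231). These were 1 of 15 endothelial and 2 of 9 mural genes tested, beside 23.8% of all genes.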

How the data were processed

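Total RNA of spinal cord was sequenced in 12 libraries, 8 from MFN2 and 4 from WT mice, 1 library per mouse by the study's methods. P-values measure the spread between these libraries. The authors aligned paired-end reads of 75 bases with STAR to GRCm38.p6 and deposited raw counts per Ensembl gene for each library. The tool and strand setting of the counting are not given in the sources used here, and the submitters' processing notes also name bcl2fastq and edgeR. The labels name a SMARTer mRNA kit, the methods a stranded total RNA kit with poly(A) selection.

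Of 49548 genes, 49289 matched a symbol. Genes above 1 CPM in at least 3 libraries of a comparison were tested with edgeR 4.0.16 (R 4.3.3; TMM scaling, robust quasi-likelihood fit, Benjamini-Hochberg adjustment over all genes tested, called at an FDR of 0.05), after the procedure was tested on simulated data. MFN2 and WT libraries were compared over all libraries and within 41 to 47, and libraries 72 to 76 with WT and with 41 to 43. CPM are the deposited counts divided by the TMM-scaled library size. Correlations used log2 CPM with a prior count of 2 and 100000 permutations, two-sided (SciPy 1.17.1, Python 3.11.15). Alternatives were DESeq2 1.42.0, other scalings, filters and prior counts, and leaving out each library.

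The members and lists were chosen with earlier results of these data known. From each list, up to 4 called genes with the lowest FDR, and otherwise the 2 most abundant, were to be named, with the 10 genes most like the members and the 3 least like them. Genes named outside this rule, among them Chat, Slc17a7, Apex2 and Mfn2, were chosen after their values were seen. Ahsp, Hbb-b1 and Hbb-b2 were not analysed here, and some genes of the lists are counted but not reported by name.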

Additional observations from a re-analysis of the deposited data

Results flagged for a closer look

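Single libraries far from the others of their genotype were looked for with Dixon's ratio, the gap from the extreme library to its neighbour over the whole range. Of 98 groups of values tested, 14 passed the 95% limit. For separate groups of normally distributed values, chance alone would pass about 1 in 20, or 4.9. Here the levels were not log-transformed and some groups share genes, so that 14 beside 4.9 does not measure an excess.

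In MFN2 mice, library 73 was the highest for Hba-a2 (118 CPM, ratio 0.779), Hbb-bs (114 CPM, ratio 0.578), Hbb-bt (26.3 CPM, ratio 0.529) and Alas2 (43.998 CPM, ratio 0.541). The same library was highest for the globin share of all counts (0.0298%, ratio 0.683) and for the summed globin level (289 CPM, ratio 0.684). The share and the summed level are made of the counts of the 4 globin genes, so that they are not separate from those levels. In WT mice, library 44 was highest for Slc4a1 (43.9 CPM, ratio 0.831).

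MFN2 library 43, the one with high forebrain genes, was highest for the summed regulators of globin genes (519 CPM, ratio 0.58), for the platelet gene Gp1bb (5.68 CPM, ratio 0.622) and for Acta2 (3.99 CPM, ratio 0.542). It was lowest for the summed red cell genes that other cells also express (1728 CPM, ratio 0.532) and for Mmp9 (3.85 CPM, ratio 0.575). WT library 47 was highest for Mmp9 (13.7 CPM, ratio 0.915), and WT library 46 was lowest for Gp1bb (2.39 CPM, ratio 0.967).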

How the results depend on the processing

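Of 20 log2 fold changes (5 members in 4 comparisons), 8 kept their sign and their side of the threshold under every alternative run. Between all MFN2 and WT libraries, leaving out WT library 45 turned Hba-a1 to -0.028, Hbb-bs to -0.077 and Hbb-bt to -0.22, leaving out WT library 46 turned Hbb-bt to -0.065, and leaving out MFN2 library 73 turned Hba-a2 to -0.099, Hbb-bs to -0.060 and Hbb-bt to -0.17. With libraries 41 to 43 as the only MFN2 libraries, Hba-a2 was -0.11, Hbb-bs -0.20 and Hbb-bt -0.55, and with 72 to 76 only, 1 member was called. The highest values with 1 library left out were 0.31 for Hba-a1, 0.72 for Hba-a2, 0.28 for Hbb-bs and 0.72 for Hbb-bt, all without WT library 44. Within libraries 41 to 47, Hba-a1 was -0.0055 without a filter, -0.032 with upper-quartile scaling, -0.12 without WT library 45, -0.077 without WT library 46 and -0.12 without MFN2 library 42. There, Hba-a2 was 0.26 without WT library 44 and 0.15 without MFN2 library 42, Hbb-bt 0.092 without WT library 44, and Alas2 -0.082 without WT library 45. The other ends of these ranges were 0.22 for Hba-a1 and 0.38 for Alas2 without WT library 44, -0.42 for Hba-a2 without WT library 45 and -0.99 for Hbb-bt without MFN2 library 43. In libraries 72 to 76 against WT, Hba-a2 ranged from -0.090 without library 73 to 0.94 without WT library 44. The causes were not tested.

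The number of members called in libraries 72 to 76 against WT was 0 without a filter (Alas2 adjusted p = 0.111 in edgeR), 0 with edgeR's filterByExpr (0.0537), and 0 to 1 when single libraries were left out. The call held in DESeq2 (adjusted p = 0.00788), and the range over all alternatives was 0.00788 to 0.118. DESeq2 also called 1 member, Alas2, in libraries 72 to 76 against 41 to 43 (adjusted p = 0.00736). Calls over all genes were 0 to 19 between MFN2 and WT libraries when single libraries were left out, 200 in DESeq2 and 3746 with libraries 72 to 76 only. They were 0 to 2 (DESeq2 5) within libraries 41 to 47, 2350 to 4517 in libraries 72 to 76 against WT and 31 to 2375 (DESeq2 1795) against libraries 41 to 43. No paired analysis was possible because the litter of each mouse is not given in the sources used here. Globin counts of 73 to 2352 per gene and library leave little counting error beside the spread between mice.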
